A study of Arabidopsis thaliana with 6 samples.

Results

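The regions described here are stretches of the Arabidopsis thaliana genome, in and beside the centromeres, where chromatin from seedlings carrying MUTE-GFP was enriched over input. The 3 peak lists of the immunoprecipitated (IP) samples were pooled by position, peaks that overlapped or touched became a single merged region, and such a region was kept where at least 2 replicates held a peak in it. Of 14106 merged regions on chromosomes 1 to 5, 9046 were kept, which is 64.1%. Of these, 367 had their midpoint within 2.5 Mb of a point set in the centromere of its chromosome, at 15.1, 3.6, 13.6, 3.96 and 11.7 Mb on chromosomes 1 to 5. The 367 comprised 356 central regions and 11 regions in a block of chromosome 2, from 3.2 to 3.7 Mb, that holds sequence present in several copies in the cell and is described apart. The other 8679 regions are called the rest. In the central windows outside the block 356 of 588 merged regions were kept, or 60.5% (95% Wilson interval 56.5 to 64.4), close to the 64.1% over all regions.

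MUTE is a basic helix-loop-helix transcription factor of the stomatal lineage, which ends the divisions of the meristemoid and starts its change into a guard mother cell. It acts with SCREAM, a partner of the same protein family, and such dimers bind short E-box motifs in DNA. Centromeres of Arabidopsis are built of satellite repeats, and the pericentromeres beside them are rich in transposable elements, poor in genes, and packed into methylated heterochromatin. Copies of a repeat that are missing from the reference assembly send their reads to the copies that are present, in IP and input alike.

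All samples were entire seedlings, 2 days after germination, homozygous for proMUTE::MUTE-GFP, which places MUTE-GFP under the MUTE promoter, in the scrm-D background. The scrm-D allele is a dominant form of SCREAM that turns the epidermis of the seedling largely into stomata, so the plants differ from wild type before any IP. The series holds 3 IP samples, precipitated with an antibody against GFP, and 3 input samples without antibody. An IP from plants without MUTE-GFP was not analysed here, so MUTE binding and background that recurs in every IP cannot be told apart, and all cells of the seedling contribute to each value.

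IP libraries held 30075453, 20173429 and 21903071 fragments after removal of duplicates in replicates 1, 2 and 3, and their lists held 12388, 10823 and 7710 peaks on chromosomes 1 to 5. For each peak the lists give the pileup, which is the number of IP fragments over the summit, and the fold enrichment, which is the authors' ratio of that pileup to the local background. Both are the authors' values. The background in fragments was computed back from the pair, and a region holding a peak with a background above 3 times the median of its list is called a high-background region.

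Shared MUTE-GFP regions were sparse around the centromeres. The central windows held 14.5 regions per Mb (356 in 24.5 Mb, exact Poisson interval 13.1 to 16.1, counting error only), against 92.2 per Mb in the rest. Counting in each replicate only the kept regions where it had a peak, central density was 13.1, 14.3 and 11.9 per Mb in replicates 1, 2 and 3. The corresponding values in the rest were 88.7, 89.6 and 66.6 per Mb. The central value lay below the rest in every replicate, and the 2 sets of 3 values did not overlap. The mean was 13.1 ± 1.20 per Mb in the centre and 81.6 ± 13.0 per Mb in the rest (SD, n = 3). The log2 ratio of central to rest density was −2.63 ± 0.14 (SD, n = 3), a 6.20-fold lower density. The exact two-sided sign-flip permutation test over the 3 replicates gave p = 0.25, the smallest value that 3 replicates allow, so no contrast tested in this way can pass 0.05. The contrasts of density, pileup, width and fold enrichment, in all central regions and in those of ordinary background, make 8 in all, and the adjusted value (Benjamini-Hochberg) was 0.33 for each with a permutation p of 0.25.

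**Figure D1:**
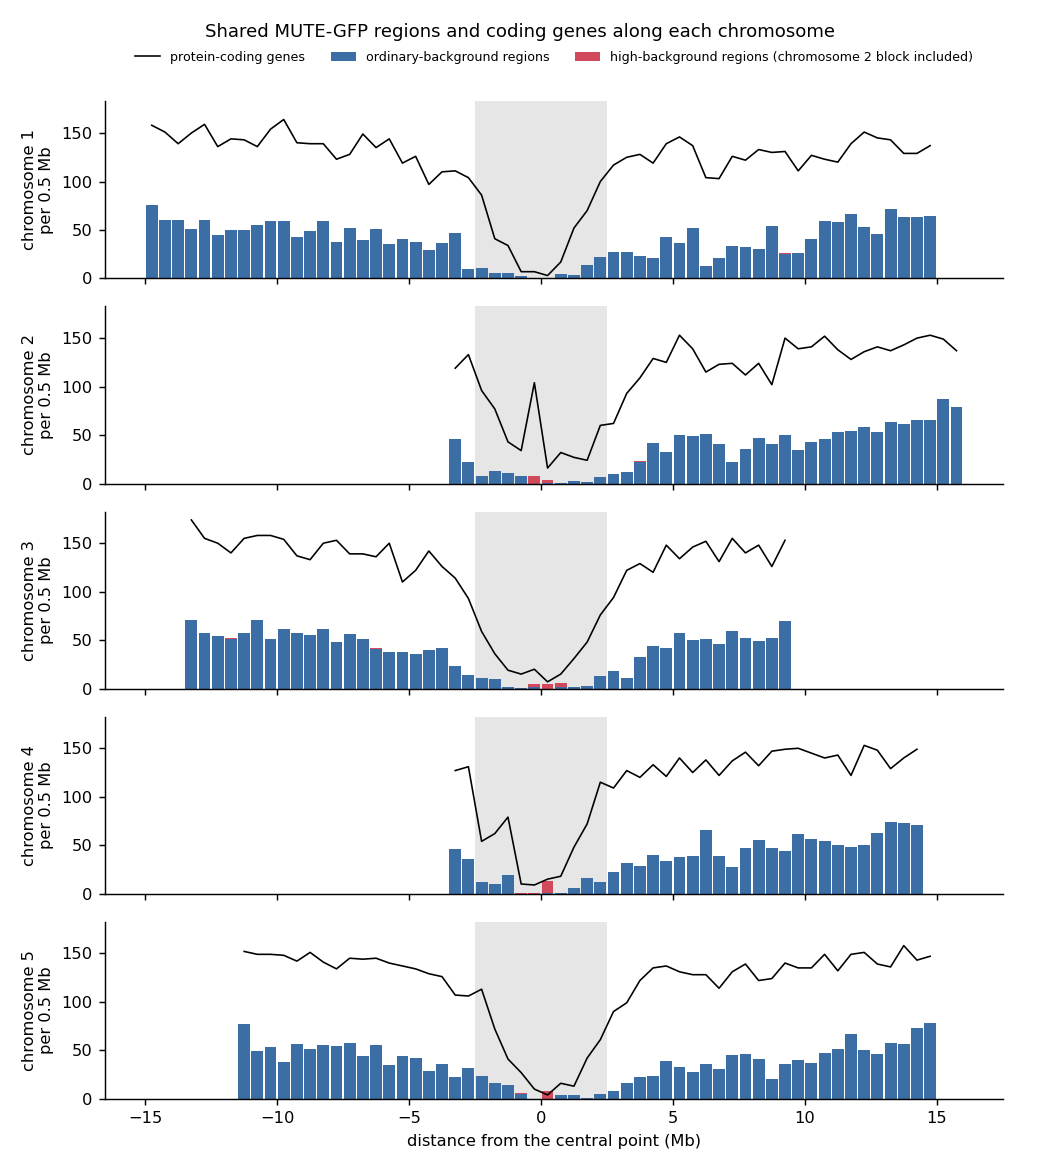
Shared regions (bars) and protein-coding genes (line) per 0.5 Mb along the 5 chromosomes, by distance in Mb from the central point of each. The grey band marks the 2.5 Mb on either side, where bars and line are mostly lower than outside. On chromosome 2 the line rises to 104 genes in the bin from −0.5 to 0 Mb, over the block. Red bars mark high-background regions, which stand mainly at the point itself.

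Every chromosome showed the lower density. Central counts were 72, 54, 58, 91 and 81 regions on chromosomes 1 to 5, or 14.4, 12.0, 11.6, 18.2 and 16.2 per Mb. The rest of the same chromosomes held 91.0, 92.2, 95.9, 96.0 and 88.1 per Mb. Density was thus 5.27-fold lower on chromosome 4, the smallest difference, and 8.27-fold lower on chromosome 3, the largest. Central regions covered 1.80% of their windows and the other regions 13.0% of theirs.

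The difference was smaller per gene than per Mb. RefSeq's annotation of the TAIR10.1 assembly was used for gene positions, and its chromosomes 1 to 5 were taken to be those of TAIR10, which the submitters' processing notes name. It places 2033 protein-coding genes in the central windows, or 83.0 per Mb, against 269 per Mb in the rest. There were 17.5 central regions per 100 coding genes and 34.3 in the rest, a 1.96-fold difference where the difference per Mb was 6.34-fold over the kept regions. The log2 ratio per coding gene was −0.94 ± 0.14 (SD, n = 3). Replicates 1 to 3 all lay below 0, with p = 0.25 by the same exact permutation test.

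The central genes themselves less often carried a region. A shared region lay over or within 1 kb of 308 of 2033 central coding genes, or 15.2% (13.7 to 16.8), and of 11604 of 25307 in the rest, or 45.9%. Over all coding genes the share was 43.8%. For pseudogenes, a class that in this annotation includes many remnants of transposable elements, the shares were 68 of 3391 in the centre, or 2.01%, and 273 of 1382 in the rest, or 19.8%. RNA and other genes fell between, with 85 of 616 in the centre, or 13.8%, and 43.5% in the rest. Each class was lower in the centre, and pseudogenes were lowest in both compartments.

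Of the 356 central regions, 36 had a high background, against 5 of 8679 in the rest. They were spread unevenly, with 1 on chromosome 1, 0 on chromosome 2, 12 on chromosome 3, 14 on chromosome 4 and 9 on chromosome 5. All 24 members within 50 kb of a point were of this kind. The remaining 320 regions are called ordinary.

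High-background regions were tall but, by the authors' ratio, only slightly above their background. A called peak exceeds its background, so a tall pileup follows from how the class was defined, and the values only describe it. Fold enrichment is tied to the definition too, since background was computed from pileup and fold. Their pileup ran from 324 to 710 fragments with a median of 533 in replicate 1, from 219 to 704 with a median of 475 in replicate 2, and from 280 to 703 with a median of 529 in replicate 3. Ordinary regions ran from 106 to 482 with a median of 157 in replicate 1, from 74 to 468 with a median of 127 in replicate 2, and from 75 to 426 with a median of 120 in replicate 3. Medians were higher in the high-background regions of each replicate, and the ranges overlapped. Fold enrichment went the other way, at 1.16 to 1.89, 1.16 to 2.00 and 1.15 to 1.67 in high-background regions of replicates 1 to 3. Ordinary regions ran from 1.34 to 5.81, 1.41 to 8.58 and 1.36 to 6.98, so the ranges overlapped at their low end. The back-computed background had a median of 405, 323 and 388 fragments under the high-background regions and of 78.0, 53.6 and 57.1 under the ordinary ones. The inputs held 43982314, 37511346 and 32543582 kept fragments in replicates 1 to 3, in each more than the IP. Copy number was not measured. The parts of copy number and of IP and input depth in these values were not tested.

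**Figure D2:**
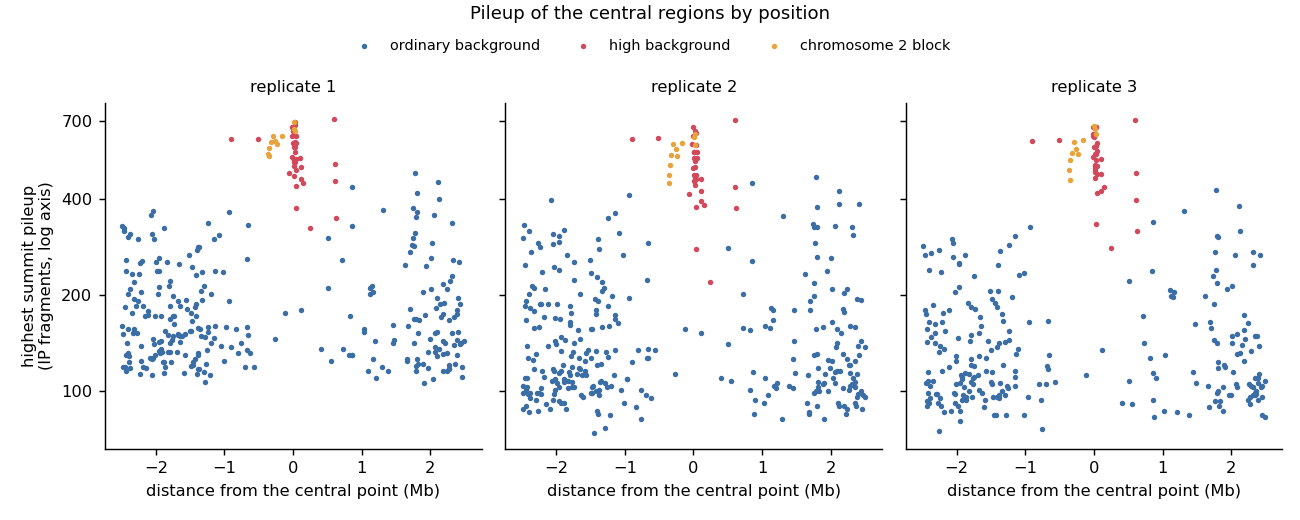
Highest summit pileup of each central region (IP fragments, log axis) against its distance from the central point (Mb), 1 panel a replicate, all 5 chromosomes together. High-background regions (red) and the chromosome 2 block (orange) stack near the point at 219 to 710 fragments, and ordinary regions (blue) thin out towards it.

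The high-background regions formed clusters. On chromosome 4, 13 of 14 lay in a row from 3950385 to 4011617, over the point itself. The widest of these, at 3965803–3973504, had pileups of 581, 536 and 551 and fold enrichments of 1.33, 1.60 and 1.29 in replicates 1 to 3. On chromosome 5, 8 of 9 lay between 11701778 and 11737796. The one nearest to the point, at 11701778–11705879, had pileups of 595, 561 and 580 and fold enrichments of 1.28, 1.51 and 1.43. In both, the 3 replicates gave similar pileups, though their kept fragments differed, and replicate 2 gave the highest fold. Only 1 fragment was kept per duplicate position, which can limit tall pileups, so similar values are not a measure of agreement. The parts of this limit and of IP and input depth were not tested. On chromosome 1 the region nearest to the point, at 15082026–15086021, lay in AT1G40104 and had pileups of 628, 593 and 628. Of the 36 regions, 30 touched no annotated gene.

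Chromosome 3 held the widest central region of all, 13343 bp at 14191815–14205157. Its pileup was 710, 704 and 703 and its fold enrichment 1.63, 2.00 and 1.67 in replicates 1 to 3. The replicates differed by few fragments in pileup, under the same limit of 1 fragment per duplicate position. It was the one member over annotated ribosomal RNA genes, and contains AT3G41768 and AT3G41979, 2 of only 4 such genes that the annotation lists on chromosomes 1 to 5. Ribosomal RNA genes exist in long tandem arrays that the assembly does not hold. Another 3 high-background regions followed directly, between 14206740 and 14225125. Nearest to the point of chromosome 3 was 13588861–13592424, with a pileup of 668 in each replicate and fold enrichments of 1.44, 1.80 and 1.45.

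Ordinary regions were absent from the core. The nearest ordinary member lay 507, 407, 119, 111 and 759 kb from the point on chromosomes 1 to 5. The longest stretch without an ordinary region was 1309 kb on chromosome 1, 1030.5 kb on chromosome 2, 835 kb on chromosome 3, 1304 kb on chromosome 4 and 1612 kb on chromosome 5. High-background regions do not break such a stretch, and on chromosome 2 it contained the whole block with its 11 regions. In the rest the longest stretch was 244 kb. The median distance between neighbours was 23.2 kb in the centre and 4.81 kb in the rest. On chromosome 1 the first ordinary region, at 15605657–15608309, lay in SKS6 and had fold enrichments of 3.67, 4.73 and 3.79.

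In successive steps of 0.5 Mb away from the point, the central windows held 4, 30, 71, 91 and 124 ordinary regions. Per 100 coding genes this was 4.40, 15.7, 18.3, 16.7 and 15.1. Beyond the first 0.5 Mb the count per gene was thus nearly level inside the window while the count per Mb rose from 6.0 to 24.8. Outside the window it rose again, from 19.2 per 100 genes at 2.5 to 3 Mb to 28.0 at 4 to 5 Mb and 39.0 at 8 to 16 Mb. The share of coding genes with a region over or within 1 kb followed the same course. It was 2.20% (0.60 to 7.66) in the first step, 16.3% (14.0 to 19.0) at 2 to 2.5 Mb, 21.7% (19.3 to 24.3) in the next step and 53.7% (52.8 to 54.5) at 8 to 16 Mb. Per Mb, by contrast, density rose on both sides of the 2.5 Mb limit, from 24.8 just inside to 39.8 just outside.

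**Figure D3:**
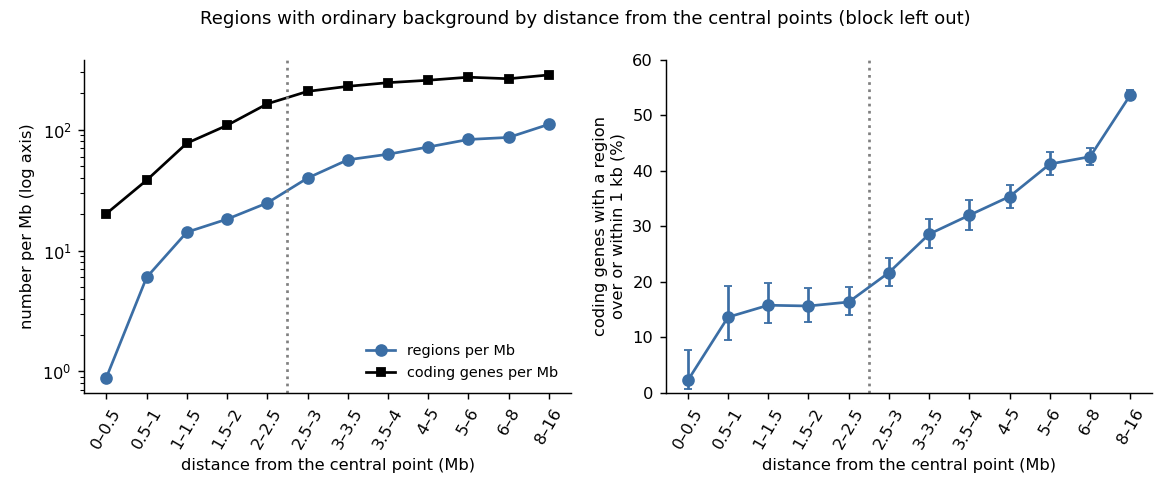
Ordinary regions by distance from the central points, with all chromosomes joined and the block left out. The left panel gives regions and coding genes per Mb on a log axis, and the right panel the percentage of coding genes with a region over or within 1 kb, with 95% Wilson intervals (counting error only), which stays near 16 from 1 to 2.5 Mb and climbs to 53.7 beyond the dotted line at 2.5 Mb.

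Across the 50 central bins of 0.5 Mb, the number of ordinary regions and of coding genes went together with Pearson's r = 0.76 and Spearman's rho = 0.78. Here the bins over the chromosome 2 block were included. The block's bin from −0.5 to 0 Mb held 104 coding genes, and all 8 of its regions had a high background. In 184 bins of the rest r was 0.69 and rho 0.64. Bins share libraries and neighbouring bins are not independent, so these describe the map only. Of the central bins 8 held no ordinary region, that bin of the block among them, whereas every bin of the rest held some. The sides of a centromere held unequal numbers. On chromosome 5 the side of lower coordinates held 58 ordinary regions, or 22.1 per 100 coding genes, and the other side 14, or 10.3. The side of lower coordinates was also the denser on chromosome 2, at 15.8 against 8.97 per 100 coding genes, on chromosome 3, at 17.4 against 11.3, and on chromosome 4, at 19.2 against 13.4. On chromosome 1 the other side was the denser, at 18.6 against 14.9.

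Pileup was slightly higher in the centre, but not once the high-background regions were left out. The median pileup of central regions was 171.5, 135 and 133 fragments in replicates 1 to 3, and that of the rest 160, 121 and 119. Each central median lay above the rest of the same replicate. The log2 difference of the medians was 0.14 ± 0.03 (SD, n = 3; exact sign-flip permutation p = 0.25). Without the 36 high-background regions the central medians were 157, 127 and 120, below the rest in replicate 1 and above it in the other replicates. The log2 difference was then 0.02 ± 0.05, with an exact permutation p of 0.75. Background was computed from pileup and fold, so leaving these regions out shifts the medians by definition. The contrast among ordinary regions is thus a description only. The chromosomes did not go one way. Among ordinary regions the log2 difference was 0.11 ± 0.07 on chromosome 1 and 0.16 ± 0.10 on chromosome 3, above 0 in 3 of 3 replicates (SD, n = 3). It was −0.03 ± 0.01 on chromosome 4 and −0.09 ± 0.03 on chromosome 5, below 0 in 3 of 3, and 0.06 ± 0.07 on chromosome 2. With all members it was highest on chromosome 3, at 0.31 ± 0.12, and lowest on chromosome 5, at −0.02 ± 0.05.

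Fold enrichment differed little over all chromosomes together. Its central median was 1.86, 2.16 and 1.96 in replicates 1 to 3, and in the rest 2.00, 2.18 and 2.02. The central value was lower in each replicate, by a mean log2 difference of −0.05 ± 0.04 (SD, n = 3; exact permutation p = 0.25). Among ordinary regions the medians were 1.94, 2.26 and 2.06, and the difference turned to 0.01 ± 0.05 (exact permutation p = 0.75). As with pileup, this shift is tied to how the high-background class was defined. By chromosome, with all members, the log2 difference was above 0 in 3 of 3 replicates on chromosome 1, at 0.09 ± 0.04, and on chromosome 2, at 0.11 ± 0.05 (SD, n = 3). It was below 0 in 3 of 3 on chromosome 4, at −0.13 ± 0.01, and on chromosome 5, at −0.16 ± 0.08, and mixed on chromosome 3, at −0.02 ± 0.06. Differences between chromosomes were not tested. A fold enrichment of at least 3 in all 3 replicates was found in 40 of 356 central regions, or 11.2% (8.36 to 14.9), beside 12.9% of all shared regions. All 40 were ordinary regions, which largely follows from how the high-background class was defined.

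Central regions were narrower. The median summed peak width per region was 681.5, 704 and 661 bp in replicates 1 to 3, against 814, 805 and 735 bp in the rest. The central median was the smaller in each replicate. The log2 difference was −0.20 ± 0.05 (SD, n = 3; exact permutation p = 0.25). It was −0.29 ± 0.04 among ordinary regions, with medians of 646, 664 and 609.5 bp. By chromosome it was below 0 in all 3 replicates on each but chromosome 2, where it was below 0 in 2 of 3. Merged regions of ordinary background had a median width of 853 bp in the centre and 1002.5 bp in the rest. Of ordinary central regions 11, or 3.44%, were at least 3 kb wide, against 8.50% of the rest.

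**Figure D4:**
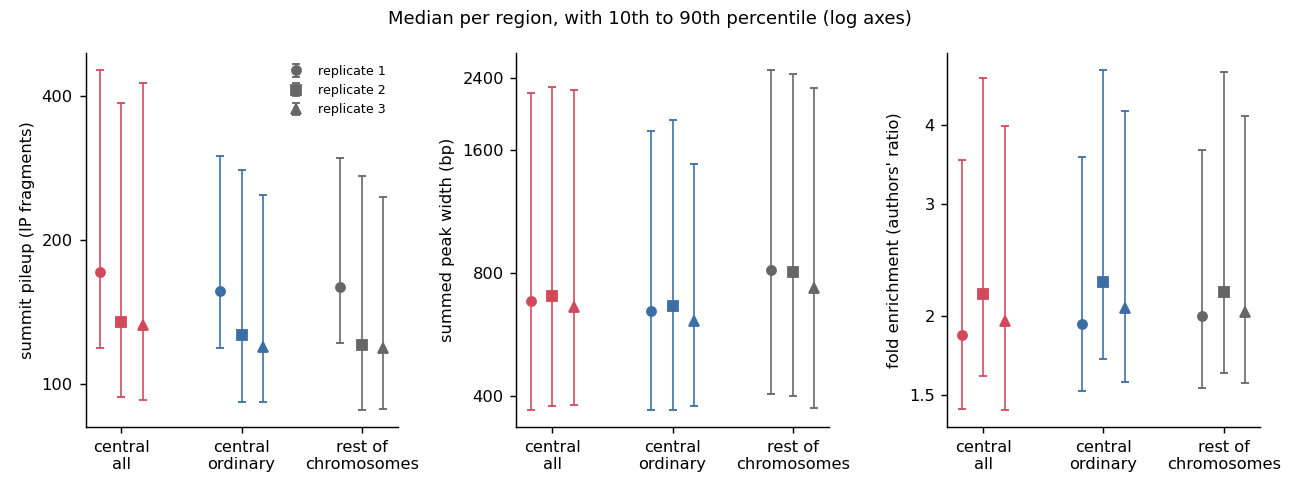
Median pileup (IP fragments), summed peak width (bp) and fold enrichment per region on log axes, by replicate, for all central regions, ordinary central regions and the rest; bars span the 10th to 90th percentile over regions. Widths are lower in the centre in every replicate, and pileup and fold of ordinary regions sit beside those of the rest.

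The share of regions with peaks of all 3 replicates was similar in the centre and elsewhere, but which replicate was missing differed. A peak of all 3 replicates was present in 249 of 356 central regions, or 69.9% (65.0 to 74.5), beside 65.9% of all shared regions. Among ordinary regions the share was 67.2% (61.9 to 72.1) in the centre and 65.6% in the rest. The regions that 1 replicate lacked were divided among the replicates as follows. Replicate 3, with the shortest list, was the one missing in 65 of 107 such central regions, or 60.7% (51.3 to 69.5), and in 80.7% in the rest. Replicate 1, the deepest library, was missing in 36 of 107, or 33.6% (25.4 to 43.0), and in 11.1% in the rest. These shares are descriptions over 3 lists and were not tested over samples. In ordinary regions where each replicate had a single peak, 194 in number, the summits of replicates 1 and 2 lay a median 50 bp apart, those of 1 and 3 46 bp and those of 2 and 3 41 bp. The rest gave 52, 57 and 47 bp. The median SD of log2 fold over the replicates was 0.23 in 215 ordinary regions of all 3 replicates and 0.21 in the rest. Replicate 2 gave the highest fold in 179 of those 215, or 83.3%, and in 75.9% of the rest.

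The block of chromosome 2 held long stretches of nearly continuous signal, and regions covered 56.2% of it. The nuclear genome of the Columbia accession carries a large insertion of mitochondrial DNA beside this centromere. The 11 regions of the block all had peaks of the 3 replicates and a high background, and they formed 2 runs. The first, of 8 regions, spanned 3239221–3509667 and covered 98.5% of it. The second, of 3 regions, spanned 3605747–3627842 and covered 64.5%. The 96.1 kb between them held no region. The widest region, 141422 bp at 3368246–3509667, had pileups of 626, 596 and 609 and fold enrichments of 1.55, 1.83 and 1.54 in replicates 1 to 3. Next came 3323003–3360580, with fold enrichments of 1.53, 1.81 and 1.47, and 3290866–3322581, with 1.55, 1.81 and 1.52. Replicate 2 was the highest in each, and none of the block's regions reached a fold of 2.00.

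Median levels over the block were close to those of the mitochondrial chromosome. The median pileup of its peaks was 606, 568 and 552.5 in replicates 1 to 3, and that of peaks on the mitochondrial chromosome 600, 554 and 543. Median fold enrichment was 1.47, 1.70 and 1.40 in the block and 1.5, 1.76 and 1.41 on the mitochondrial chromosome. The background was 396, 323 and 390 fragments in the block and 400, 326 and 383 on the mitochondrial chromosome, whereas the median over all peaks of chromosomes 1 to 5 was 78.6, 54.0 and 57.3. In background the likeness was not particular to the block, since the 36 central high-background regions had medians of 405, 323 and 388. The median pileup of those regions was lower, at 533, 475 and 529. The part of IP and input depth in these values was not tested. The medians over the block rest mainly on the first run, with 8 of the 11 regions. The second run was taller, with a median pileup of 659, 625 and 658 and a background of 480.4, 379 and 465, above the mitochondrial medians in each replicate. How reads matching both places were assigned is not given in the sources used here. In the block, 96 of 104 coding genes, or 92.3%, had a region over or within 1 kb, beside 43.8% of all coding genes. Regions covered 56.2% of the block, so this share depends on that coverage.

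Most ordinary central regions had a coding gene within 1 kb of the summit, but a smaller share did so than in the rest. The summit was in a coding gene in 144 of 320, or 45.0% (39.6 to 50.5), between genes in 156, in a pseudogene in 10 and in an RNA or other gene in 10. In the rest, 52.1% of summits were in coding genes and 0.40% in pseudogenes. A coding gene lay within 1 kb of the summit in 237 of 320, or 74.1%, and in 88.1% of the rest. Coding genes numbered 83.0 per Mb in the centre and 269 in the rest. The annotation holds 3391 pseudogenes in the central windows and 1382 in the rest. These shares of summits depend on such densities, and shares expected from position alone were not computed. Gene starts were not used, since the annotation table gives no strand.

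The strongest central region, by mean log2 fold over the replicates, was on chromosome 4 at 5738001–5742416, 1352 bp from EXO, which encodes a brassinosteroid-responsive extracellular protein that promotes cell expansion. Its fold enrichment was 5.81, 8.58 and 6.98 and its pileup 482, 468 and 426 in replicates 1 to 3. Replicate 2 had the highest fold and replicate 1 the highest pileup. The mean log2 fold was 2.81 ± 0.28 (SD, n = 3), which ranked 52 among all 9046 shared regions. The second was on chromosome 5 at 12557934–12561303 in XGD1, a xylosyltransferase that makes the pectin xylogalacturonan. Its fold enrichment was 5.47, 8.32 and 5.79, a mean log2 fold of 2.68 ± 0.33 (SD, n = 3). The strongest members of chromosomes 1 to 5 lay 2.12, 2.31, 1.15, 1.78 and 0.86 Mb from the point of their chromosome.

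On chromosome 1 the strongest region, at 17218031–17220700, lay between genes, 5654 bp from HSFB4, a heat shock factor family member also called SCHIZORIZA that acts in root stem cell fate. It had fold enrichments of 5.49, 6.83 and 6.44 and pileups of 452, 423 and 378 in replicates 1 to 3. A neighbour closer to HSFB4, at 17221477–17227060, was the widest ordinary central region, with 5584 bp and fold enrichments of 4.20, 6.26 and 5.40. At 14163329–14167190, 3472 bp from the nitrate reductase gene NIA2, the values were 4.63, 7.27 and 5.89. This region lay 935 kb from the point. The third, at 16899405–16901900 near AT1G44760, gave 4.96, 6.23 and 4.92. All of these were highest in replicate 2.

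Chromosome 2 had its strongest member at 5913089–5914748 in MCM9, of the minichromosome maintenance family known from DNA replication and repair. Fold enrichment there was 4.54, 6.56 and 4.49 in replicates 1 to 3. The others were 1339407–1340192, 324 bp from AT2G04050, with 3.77, 5.85 and 5.04, and 6018037–6018887, with 3.27, 6.75 and 4.92. The last lay 94 bp from AGL44, also called ANR1, a MADS-box gene of the root response to nitrate, and its SD of log2 fold was 0.52, against a median of 0.23. The ordinary region nearest to the point, at 4005653–4007524 in the pseudogene AT2G10405, was weak, with 1.87, 2.04 and 1.64.

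Chromosome 3 had the weakest leading members. The first, at 12453651–12454811, lay 2421 bp from ERD5, which encodes a proline dehydrogenase, and had fold enrichments of 3.39, 5.62 and 4.67. The next, at 15223259–15226973 near AT3G43270, had 2.96, 4.64 and 3.38, and 14316238–14317351 near AT3G42160 had 3.24, 3.55 and 2.94. In the last the replicates stayed close together. On chromosome 4 the region at 1887407–1890977 in AT4G03965 had 4.73, 7.02 and 5.02. UBQ10, a polyubiquitin gene expressed in most tissues, held the region 2717438–2720659, with 3.99, 5.86 and 5.30 and all 3 summits within 4 bp. On chromosome 5, the region at 9650093–9655097 in SFP1, a sugar porter family gene, gave 4.85, 5.85 and 4.71, and 9207652–9209380, 130 bp from AT5G26270, gave 4.20, 5.47 and 4.46.

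**Figure D5:**
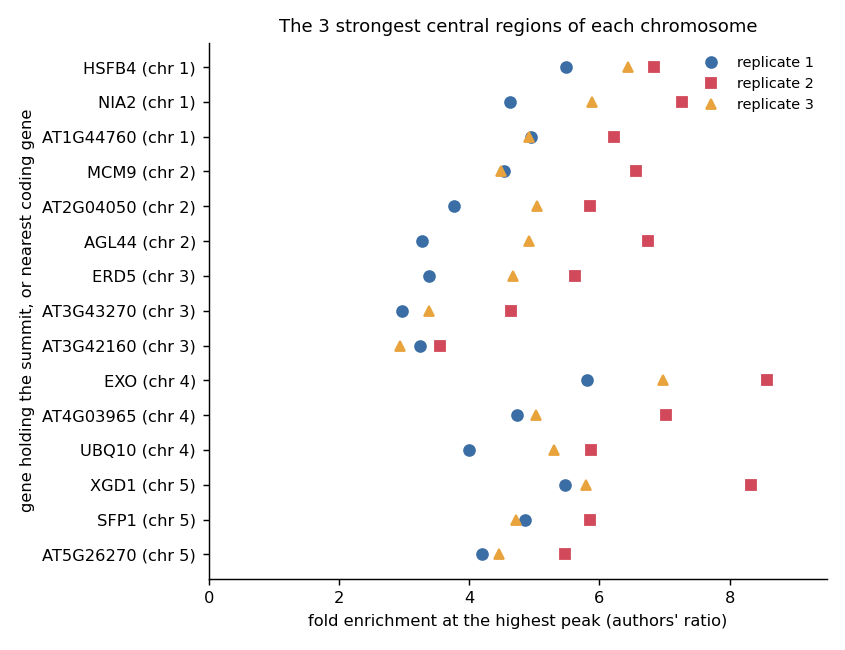
Fold enrichment (authors' ratio of IP pileup to background) in replicates 1 to 3 at the 3 strongest central regions of each chromosome, each named by the gene that holds its summit or the nearest coding gene. Replicate 2 is the highest in all 15, and the values run from 2.94 near AT3G42160 to 8.58 near EXO.

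A smaller share of central than of other regions had neighbours within 10 kb. Joining ordinary central regions at most 10 kb apart gave 209 runs, of which 68 had 2 or more members, holding 179 of the 320, or 55.9%. By the same limit 89.7% of the rest lay in such runs. Neighbours lay a median 23.2 kb apart in the centre and 4.81 kb in the rest, so these shares depend on density. Grouping beyond density was not tested. With high-background regions included the central share was 58.4%, and the largest run then held 8 members, on chromosome 4 at the point. The largest ordinary run held 7 members in 25.6 kb of chromosome 1, at 16888219–16913858, around AT1G44740, PUP11, a purine permease family gene, and AT1G44760. A run of 5 members on chromosome 2, at 2921113–2939990, lay around CAS1, the cycloartenol synthase of sterol synthesis, and PRK2A. Another of 5 on chromosome 5, at 9644423–9660262, lay around SFP1 and SFP2. These runs were named for their size after the values were seen.

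Of 19 stomatal and 12 cell cycle genes in lists written from general knowledge, 0 lay in a central window, so central regions give no value for any of them. The central windows hold 7.41% of all coding genes, so few list genes could lie there. EPF2, a signalling peptide of the stomatal lineage, and MYB88, a regulator of the last stomatal division, lay just outside, at −2.63 Mb from the point of chromosome 1 and −2.79 Mb from that of chromosome 2. In the rest, 17 of the 19 and 10 of the 12 had a shared region over or within 1 kb, beside 43.8% of all coding genes.

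At the limit itself, the outermost member was on chromosome 5 at 14197976–14199493, in CCB3, which encodes an assembly factor of the cytochrome b6f complex, and had fold enrichments of 1.86, 2.51 and 1.97. The first region outside, on chromosome 4 at 1444338–1446574, had 2.45, 3.05 and 2.20.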

How the data were processed

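Each IP replicate was called alone against its input by the authors, using MACS 2.1.0.20140616 on paired-end alignments, per the file headers, with a q-value cutoff of 0.05, an effective genome size of 130 Mb and 1 fragment kept per duplicate position. The submitters' processing notes name Bowtie2, MACS and TAIR10, and the alignment filters are not given in the sources used here. The deposited lists hold the pileup (a signal in fragments), the fold enrichment (the authors' ratio) and −log10 p and −log10 q values. Input samples enter through these lists only. Kept IP fragments per replicate, given above, limit what a list can detect.

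From the lists, regions were merged, kept and placed as stated above, with positions counted from 1. The value of a region in a replicate is its highest peak, and its width there the sum of its peaks. Background was computed as (pileup + 1) / fold − 1, from the definition of fold in MACS. Central and rest were compared within each replicate, and the 3 log2 differences were tested by the exact sign-flip test. Chromosome length was the highest position of a peak or gene. Named regions are, per chromosome, the 3 of highest mean log2 fold, the one nearest to the point and the widest, with the pair at the limit and the 3 widest of the block. Others were named after their values were seen, SKS6 and the clusters among them. The members and gene lists were chosen with earlier results of these data known. Labels do not say whether replicates came from separate sowings beyond 60 mg of seed each, so the spread between these samples may be technical. The exact sign-flip p is 0.25 whenever all 3 log2 differences share a sign, whatever their spread. Intervals cover counting error only. Alternatives are given in the closing section. Sequence at summits was not analysed. Python 3.11.15, pandas 2.3.3, numpy 2.4.6 and scipy 1.17.1 were used, and the procedure was tested on simulated data.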

Additional observations from a re-analysis of the deposited data

How the results depend on the processing

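The lower central density kept its direction in all 20 alternatives run, with log2 ratios from −3.39 to −0.94, the last per coding gene. Leaving out each replicate gave −2.75 to −2.48 for density, 0.15 to 0.17 for pileup, −0.26 to −0.22 for width, −0.09 to −0.05 for fold enrichment and 260 to 315 central regions. With a half-width of 1 Mb, where high-background regions weigh more, the width difference reversed to 0.33, the pileup difference was 1.61 and that of fold enrichment −0.38, 70 central regions remained and 80% of them had peaks of all 3 replicates. With 3 Mb there were 555 regions and the fold difference was 0.0031. Without high-background peaks the fold difference was 0.011 and that of pileup 0.018. Requiring a fold of at least 3 left 62 regions and a pileup difference of −0.013, and −log10 q of at least 10 left 179 regions. The cause was not tested beyond these values. The ratio per coding gene without high-background regions, −1.11, was chosen after seeing the data. No paired analysis was possible because, between IP and input, each list holds an IP already set against its input, and the inputs carry no separate values. Central and rest were compared within each replicate throughout. Windows of 60 and 200 bases at summits were not run. The exact sign-flip test cannot give a p under 0.25 with 3 replicates.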
